A study of Mus musculus with 12 samples.

Results

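Omp, S100a5 and Stoml3 are genes of olfactory receptor neurons, and they were taken from the 24062 genes of a count table of mouse cortex RNA by name. The 3 genes were chosen by their counts in these 12 libraries, so their levels and their differences between groups are given below as a description, with no test. Their counts were read in every library and set against Cdhr1 and Doc2g, which mark the mitral and tufted cells of the olfactory bulb. All 3 passed the filter on low counts that left 15440 genes for the fitted comparisons.

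Olfactory receptor neurons sit in the nasal epithelium, where each mature neuron uses a single odorant receptor gene, and their axons run through the cribriform plate to glomeruli of the olfactory bulb, where they contact mitral and tufted cells. Omp encodes olfactory marker protein, a cytoplasmic protein of mature receptor neurons that shapes the odor response. S100a5 encodes a calcium-binding protein of the S100 family whose expression in receptor neurons rises with odor-driven activity, and Stoml3 encodes a stomatin-like membrane protein found in their cilia and also needed by touch receptors of the skin. The neurons are known to carry some mRNA, Omp included, along their axons. RNA of these genes can therefore reach a brain sample with the bulb, and also with pieces of nasal epithelium.

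The libraries came from the cortex of 9-month-old mice, 3 per group. WT mice carried both Tia1 alleles and no transgene. Tia1+/- mice carried 1 mutant allele of Tia1, which encodes an RNA-binding protein of stress granules, from the line B6.129S2(C)-Tia1tm1Andp/J. By the study's methods this allele is frame-shifted and encodes no TIA1 protein. PS19 mice were Tia1+/+ and carried human tau with the P301S mutation under the prion protein promoter, which is active in many neurons. P301S Tia1+/- mice carried that transgene together with 1 mutant allele of Tia1. The study compared these groups to ask how lowering Tia1 alters the transcriptome of tau transgenic cortex. Each library was made from ribosomal RNA-depleted total RNA, so that unspliced RNA could also be sequenced. Whether its reads entered the counts was not given in the sources used here.

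Total counts ranged from 11978962 to 19146484 per library. The titles of the libraries and their genotype entries exchanged the Tia1+/- and P301S Tia1+/- names, and the titles, whose names a table of the study also uses for its P301S Tia1+/- columns, were followed, so every value of those groups rests on that choice. Tia1 RNA did not follow the genotype closely, with 68.0 ± 10.3 CPM (counts scaled to library size, SD, n = 3) in Tia1+/- against 82.0 ± 10.3 in WT libraries, and 74.7 ± 2.76 in P301S Tia1+/- against 73.5 ± 3.87 in PS19 libraries. Whether the mutant allele is transcribed was not tested. Xist counts were 0 to 13 in WT and PS19 libraries and 3304 to 5693 in both Tia1+/- groups, and the Y-linked Ddx3y had 1605 to 2296 and 0 to 2 counts. The study's methods name male mice for the analysis, and the study ascribes the Xist and Y-linked pattern to Tia1 heterozygosity. It reports PCR in separate, younger mice, where Tia1+/- males had more Xist and less RNA of Y-linked genes, Ddx3y included. By the counts of these 12 libraries, sex and Tia1 genotype cannot be told apart here. Libraries differed in cortical genes. The 7 genes of a cortical excitatory neuron list summed to 645 CPM in WT replicate 1 and 448 CPM in Tia1+/- replicate 3. They summed to 895, 988 and 818 CPM in P301S Tia1+/- libraries and to 1096 to 1361 CPM in the remaining libraries. No source used here gave a sequencing or dissection batch.

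On mm10, as the GENCODE annotation of the same assembly (GRCm38) gives it, Omp (ENSMUSG00000074006.3) lies on the minus strand of chromosome 7 from 98143359 to 98145502. It sits inside Capn5, on the same strand, with 0 shared exonic bases. Capn5 had 417 to 556 counts in P301S Tia1+/- and 539 to 654 in PS19 libraries, where Omp had 1154 to 2257 and 5 to 9. S100a5 (ENSMUSG00000001023.10) lies on the plus strand of chromosome 3 from 90608523 to 90611780, between S100a4 and S100a6, with 2478 and 1102 bases to each. S100a4 stayed between 13 and 27 counts and S100a6 between 99 and 273 over the 12 libraries, both far narrower than the range of 1 to 1797 for S100a5. Stoml3 (ENSMUSG00000027744.4) lies on the plus strand of chromosome 3 from 53488653 to 53508502, between Proser1, with 59 to 107 counts, and Frem2, with 18 to 132. The neighbouring genes thus did not share the range of the receptor neuron genes. Whether the counting used strand, and how it treated reads of several positions, was not given in the sources used here.

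The stretches upstream of S100a5 and Stoml3 are shown because both genes belong to 1 neuron type and varied together over the libraries. They were taken from the RefSeq promoter table of GRCm38.p6, which matched S100a5 and Stoml3 and not Omp, and end at the base before the RefSeq start. Capitals mark a window that comes closest to TCCC and GGGA with 2 free bases between them, searched on both strands, the palindrome bound by EBF factors, also called olfactory neuronal transcription factors, in receptor neurons.
S100a5, chr3:90608272-90608521, plus strand: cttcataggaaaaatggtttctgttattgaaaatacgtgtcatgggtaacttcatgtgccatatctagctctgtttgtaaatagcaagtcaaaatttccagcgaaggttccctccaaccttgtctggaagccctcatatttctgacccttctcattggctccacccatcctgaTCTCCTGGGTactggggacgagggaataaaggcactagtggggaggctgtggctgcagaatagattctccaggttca
Stoml3, chr3:53488457-53488706, plus strand: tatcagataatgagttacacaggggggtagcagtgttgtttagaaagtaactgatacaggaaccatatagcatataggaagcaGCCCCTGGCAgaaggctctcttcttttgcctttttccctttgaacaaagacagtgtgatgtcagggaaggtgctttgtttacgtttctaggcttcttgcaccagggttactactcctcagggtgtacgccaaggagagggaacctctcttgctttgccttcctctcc
The window of S100a5 held 6 of the 8 fixed letters and began 77 bases before the start. Stoml3 had 3 windows with 6 of 8 letters, and the capitals mark that farthest from the start, which began 167 bases before it. Of 32851 promoters of the same length, 71.2% held a window with at least 6 of these letters, 13.9% at least 7 and 0.779% all 8, so neither stretch was unusual in these letters.

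Omp RNA was abundant in 4 of the 12 libraries and scarce in most others. In P301S Tia1+/- mice the Omp counts were 1154, 2257 and 2231 in replicates 1 to 3, and in PS19 mice they were 5, 7 and 9. In WT mice Omp had 2025, 224 and 53 counts, and in Tia1+/- mice 12, 13 and 44. The WT libraries therefore spanned from the level of the P301S Tia1+/- group almost down to that of the Tia1+/- group, whereas the 3 libraries of each other group lay closer together. Scaled to library size, Omp stood at 162, 18.95 and 4.03 CPM in WT libraries and at 72.6, 135 and 133 CPM in P301S Tia1+/- libraries. It stood at 0.828, 0.854 and 2.84 CPM in Tia1+/- and at 0.260, 0.560 and 0.542 CPM in PS19 libraries.

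S100a5 followed the same order of groups. It had 1031, 1797 and 1748 counts in P301S Tia1+/- libraries and 6, 7 and 1 in PS19 libraries. WT libraries held 1275, 144 and 74 counts of S100a5, and Tia1+/- libraries 6, 5 and 40. In CPM these were 64.8, 108 and 104 in P301S Tia1+/- libraries, 0.312, 0.560 and 0.0602 in PS19, 102, 12.2 and 5.63 in WT, and 0.414, 0.329 and 2.58 in Tia1+/-. As for Omp, WT replicate 1 reached the level of the P301S Tia1+/- group and Tia1+/- replicate 3 was the highest of its group.

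Stoml3 was the least abundant of the 3 genes. Its counts were 97, 225 and 272 in P301S Tia1+/- libraries, and 3, 0 and 3 in PS19 libraries. WT libraries held 270, 29 and 15 counts and Tia1+/- libraries 2, 2 and 5. Stoml3 levels were 6.10, 13.5 and 16.2 CPM in P301S Tia1+/-, 21.6, 2.45 and 1.14 CPM in WT and 0.138, 0.131 and 0.322 CPM in Tia1+/- libraries. PS19 libraries stood at 0.156, 0 and 0.181 CPM, where a count of 0 in PS19 replicate 2 allows up to 3 counts. The lowest P301S Tia1+/- library, replicate 1, was the lowest of its group for all 3 genes.

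**Figure D1:**
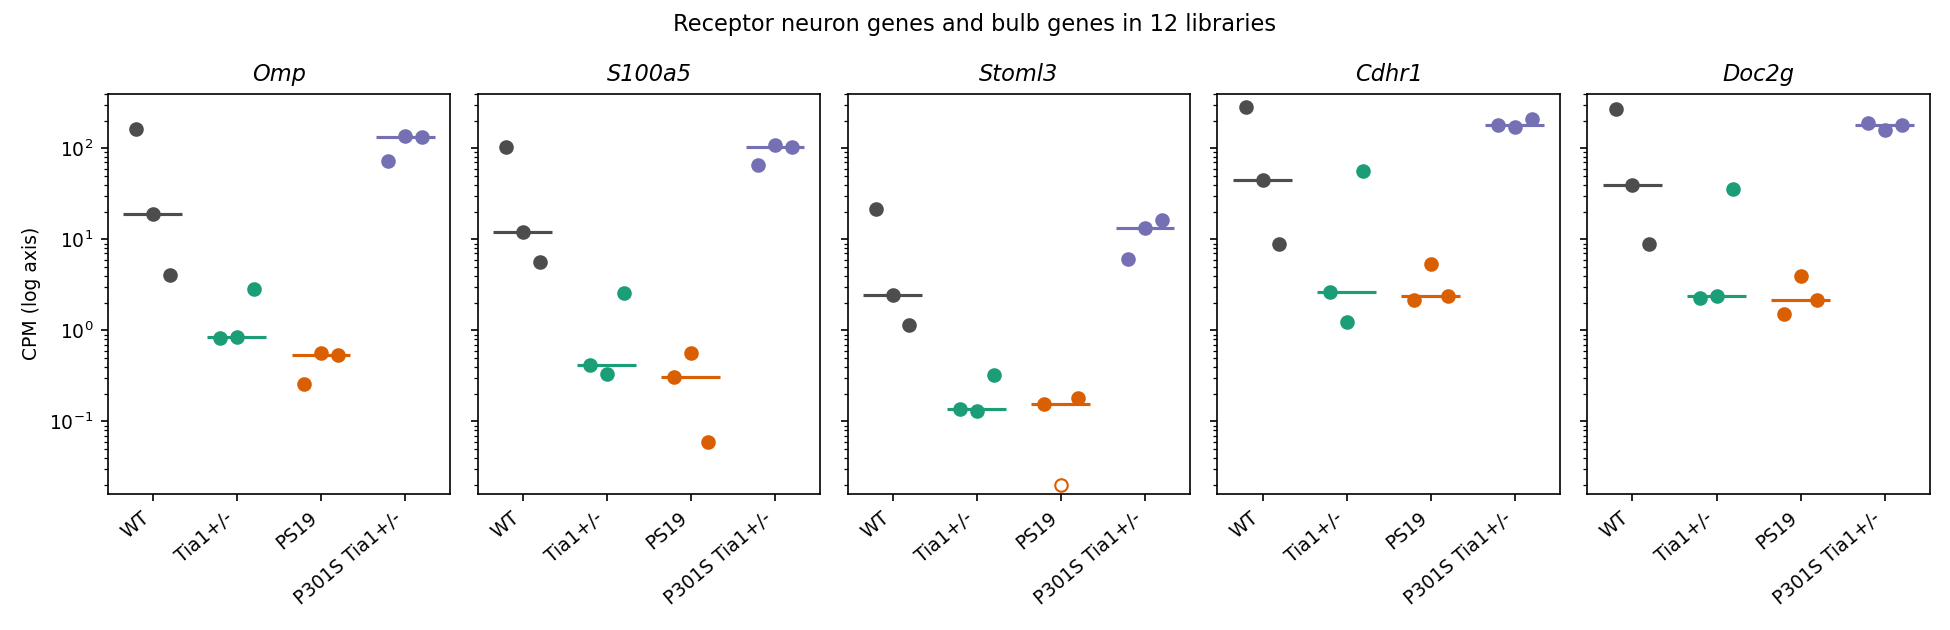
Level of Omp, S100a5, Stoml3, Cdhr1 and Doc2g in each of the 12 libraries, in CPM on a log axis, with replicates 1 to 3 from left to right in each group and the bar at the group median; the open circle marks Stoml3 at 0 counts. P301S Tia1+/- libraries lie between 72.6 and 135 CPM for Omp, PS19 libraries between 0.260 and 0.560, and WT libraries spread from 4.03 to 162.

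The order of the group means was the same for the 3 genes, from P301S Tia1+/- through WT and Tia1+/- to PS19. Omp averaged 114 ± 35.5 CPM (SD, n = 3) in P301S Tia1+/-, 61.7 ± 87.3 in WT, 1.51 ± 1.15 in Tia1+/- and 0.454 ± 0.169 in PS19 libraries. S100a5 averaged 92.2 ± 23.8, 39.95 ± 53.9, 1.11 ± 1.27 and 0.311 ± 0.250 CPM in that order, and Stoml3 11.9 ± 5.22, 8.402 ± 11.5, 0.197 ± 0.108 and 0.112 ± 0.0980. The SD of the WT group exceeded its mean for each gene, so P301S Tia1+/- and WT, neighbours in the order, did not differ beyond their spread. Nor did Tia1+/- and PS19 libraries, where the means differed by less than the SD of the Tia1+/- group, although each Tia1+/- library lay above each PS19 library for Omp. Per kilobase of the exons annotated in GENCODE, S100a5 was the highest of the 3 in WT replicate 1, with 236 CPM per kb against 75.6 for Omp and 10.05 for Stoml3. The exon length of S100a5 is 432 bases and those of Omp and Stoml3 are 2144 and 2150 bases, and the annotation used for counting may differ from these.

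In PS19 against WT cortex, all 3 genes had lower counts in every PS19 library than in any WT library. Groups that did not overlap in this direction made up 11.0% of all genes tested. This count describes the values on which the genes were chosen. Summed over 3 libraries and scaled to library size, WT held 141-fold the Omp counts of PS19 (exact 95% counting interval, 92.3 to 229), 138-fold the S100a5 counts (81.8 to 252) and 67.5-fold the Stoml3 counts (30.7 to 185). These intervals, and those of the summed counts below, pool the 3 mice of a group. They cover counting error only and not the spread between mice. The fitted log2 folds of edgeR's quasi-likelihood model were -7.11 ± 1.37 (SE) for Omp, -7.06 ± 1.33 for S100a5 and -6.01 ± 1.24 for Stoml3. Much of this size came from WT replicate 1. Without it the log2 folds were -4.67, -4.88 and -3.76, with the same direction. The bulb genes had log2 folds of -5.12 ± 1.5 for Cdhr1 and -5.43 ± 1.39 for Doc2g. Over all genes, the model called 0 of 15440, which is 0%, with 1013 higher (6.56%) and 1503 lower genes (9.73%) at an unadjusted p under 0.05. DESeq2 called 140 as higher (0.900%) and 291 as lower (1.87%).

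In P301S Tia1+/- against PS19 cortex, all 3 genes had higher counts in every P301S Tia1+/- library, as did 20.2% of all genes tested. On the same scaled sums, Omp counts were 263-fold those of PS19 (172 to 425), with 320-fold for S100a5 (190.5 to 586) and 96.9-fold for Stoml3 (44.3 to 265), where PS19 held 6 Stoml3 counts in all. Fitted log2 folds were 7.99 ± 1.39, 8.26 ± 1.34 and 6.51 ± 1.23. Leaving out any library moved these by little, to between 7.64 and 8.23 for Omp, 7.74 and 8.80 for S100a5 and 6.06 and 6.86 for Stoml3. Cdhr1 and Doc2g stood at 5.87 ± 1.54 and 6.16 ± 1.43. The model called 37 genes in this comparison, 0.240% of those tested, and at an unadjusted p under 0.05 it had 11.7% higher and 7.62% lower. DESeq2 called 3.52% as higher and 1.76% as lower. With groups taken from the genotype entries instead of the titles, the folds of Omp, S100a5 and Stoml3 were 1.77, 1.91 and 0.66, because the libraries with few counts of these genes then bear the P301S Tia1+/- name.

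In Tia1+/- against WT cortex the 3 genes again did not overlap, with every Tia1+/- library below every WT library, a pattern shared by 10.4% of all genes. Summed counts in WT, scaled to library size, were 40.3-fold those of Tia1+/- for Omp (31.7 to 51.95), 35.4-fold for S100a5 (26.7 to 47.7) and 42.1-fold for Stoml3 (21.9 to 93.0). The log2 folds were -5.34 ± 1.18 for Omp, -5.15 ± 1.11 for S100a5 and -5.34 ± 1.17 for Stoml3. Without WT replicate 1 they were -2.88, -2.95 and -3.10, and without Tia1+/- replicate 3 they were -6.18, -6.72 and -5.88. Cdhr1 and Doc2g overlapped between these groups, because Tia1+/- replicate 3 held 880 and 555 counts of them, and their log2 folds were -2.47 ± 1.27 and -2.98 ± 1.19. The model called 110 genes, or 0.712%, with 8.63% higher and 10.5% lower at an unadjusted p under 0.05 and 2.47% higher and 4.12% lower by DESeq2. Under the genotype entries the 3 folds turned to 0.88, 1.21 and 0.51.

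P301S Tia1+/- and WT libraries overlapped for all 3 genes, in a comparison where 12.4% of all genes lay wholly above WT and the model called 203 genes, or 1.31%. At an unadjusted p under 0.05 it had 8.57% of genes higher and 9.46% lower, and DESeq2 called 2.46% and 4.52%. The log2 folds were 0.88 ± 0.892 for Omp, 1.21 ± 0.836 for S100a5 and 0.51 ± 0.814 for Stoml3. WT replicate 1 held these values down. Without it they were 3.33, 3.39 and 2.74. Without WT replicate 3 Stoml3 turned to -0.03, and under the genotype entries the folds were -5.34, -5.15 and -5.34. The comparisons above share their WT, PS19 and P301S Tia1+/- libraries, so their folds are not independent of each other. In the fit of 3 libraries against 3, an exact two-sided permutation test of a gene could not fall below p = 0.1.

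**Figure D2:**
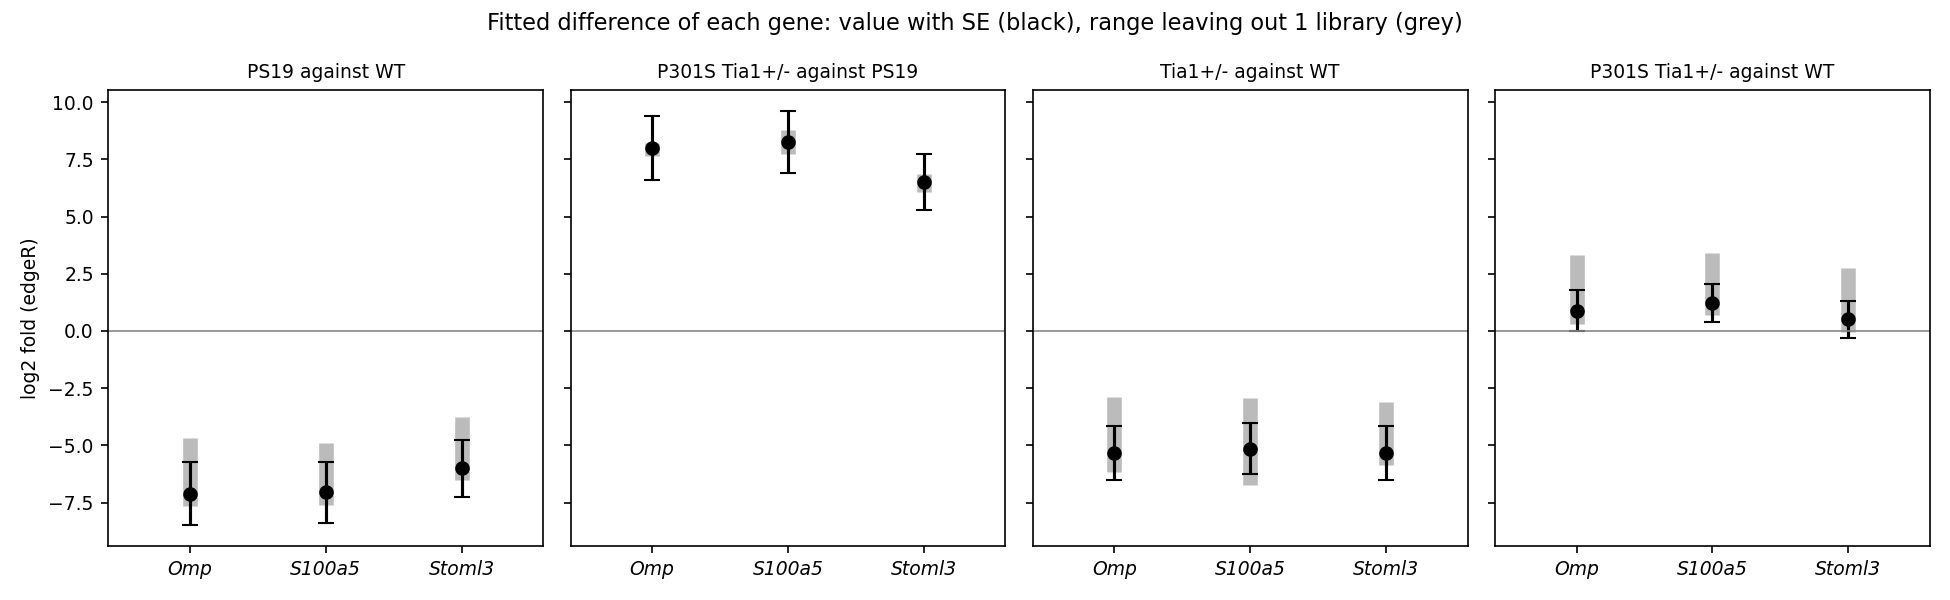
Fitted log2 fold of Omp, S100a5 and Stoml3 in the 4 comparisons, as points with their SE in black, and in grey the range over fits that each left out 1 of the 12 libraries. The grey range is short in P301S Tia1+/- against PS19 (7.64 to 8.23 for Omp) and long in the comparisons with WT (-7.65 to -4.67 for Omp in PS19 against WT).

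Set against the bulb genes, the ratio of Omp lay closer together among the WT libraries than among the P301S Tia1+/- libraries. Cdhr1 encodes a cadherin-related protein of mitral and tufted cell dendrites, and Doc2g a protein of the double C2 family expressed in the same cells. P301S Tia1+/- libraries held 2873, 2889 and 3551 counts of Cdhr1, PS19 libraries 42, 67 and 40, WT libraries 3531, 525 and 116, and Tia1+/- libraries 38, 19 and 880. For Doc2g the P301S Tia1+/- libraries held 3000, 2675 and 3055 counts, PS19 libraries 29, 50 and 36, WT libraries 3407, 464 and 117, and Tia1+/- libraries 33, 36 and 555. For each 100 counts of the bulb genes together, the WT libraries held 29.2, 22.65 and 22.75 counts of Omp, although their bulb gene counts differed from 6938 down to 233. The P301S Tia1+/- libraries held 19.65, 40.6 and 33.8. Their bulb gene counts were close to each other, at 5873, 5564 and 6606, so the Omp ratio of replicate 1 was the lowest of the group through its Omp count.

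The lowest Omp ratio was that of Tia1+/- replicate 3. It held 1435 counts of Cdhr1 and Doc2g and only 44 of Omp, or 3.07 per 100. Omp made up 2.98% of the counts of the 3 genes there (exact 95% interval, 2.17 to 3.97), against 18.5% (16.3 to 20.8) in WT replicate 2, which had a bulb gene count of 989. S100a5 stood at 2.79 and Stoml3 at 0.348 per 100 bulb gene counts in this library, against 14.6 and 2.93 in WT replicate 2. These intervals do not overlap and cover counting error alone. The same library was low in cortical genes, as given above, and had 7651 counts of Gnal, the G protein subunit used in receptor neurons and, more widely, in striatum, where the other libraries had 1221 to 2687. In PS19 libraries Omp stood at 7.04, 5.98 and 11.8 per 100 bulb gene counts, on 71 to 117 counts of the bulb genes. Its shares there were 6.58% (2.17 to 14.7), 5.65% (2.30 to 11.3) and 10.6% (4.96 to 19.15), and the first 2 of these intervals lay below those of WT replicates 1 and 2 and of the P301S Tia1+/- libraries. Tia1+/- replicates 1 and 2, with 71 and 55 bulb gene counts, stood at 16.9 and 23.6 per 100, with Omp shares of 14.5% (7.70 to 23.9) and 19.1% (10.6 to 30.5) that overlapped the WT intervals.

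The ratio of S100a5 to the bulb genes was 18.4, 14.6 and 31.8 per 100 in WT and 17.55, 32.3 and 26.5 in P301S Tia1+/- libraries. That of Stoml3 was 3.89, 2.93 and 6.44 in WT and 1.65, 4.04 and 4.12 in P301S Tia1+/- libraries. On the log2 scale with 0.5 counts added, the mean ratio to the bulb genes over the P301S Tia1+/- libraries was -1.74 for Omp, -2.02 for S100a5 and -5.05 for Stoml3. Replicate 1 of this group was the lowest for each gene. In PS19 replicate 2 no Stoml3 count stood beside 117 bulb gene counts.

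**Figure D3:**
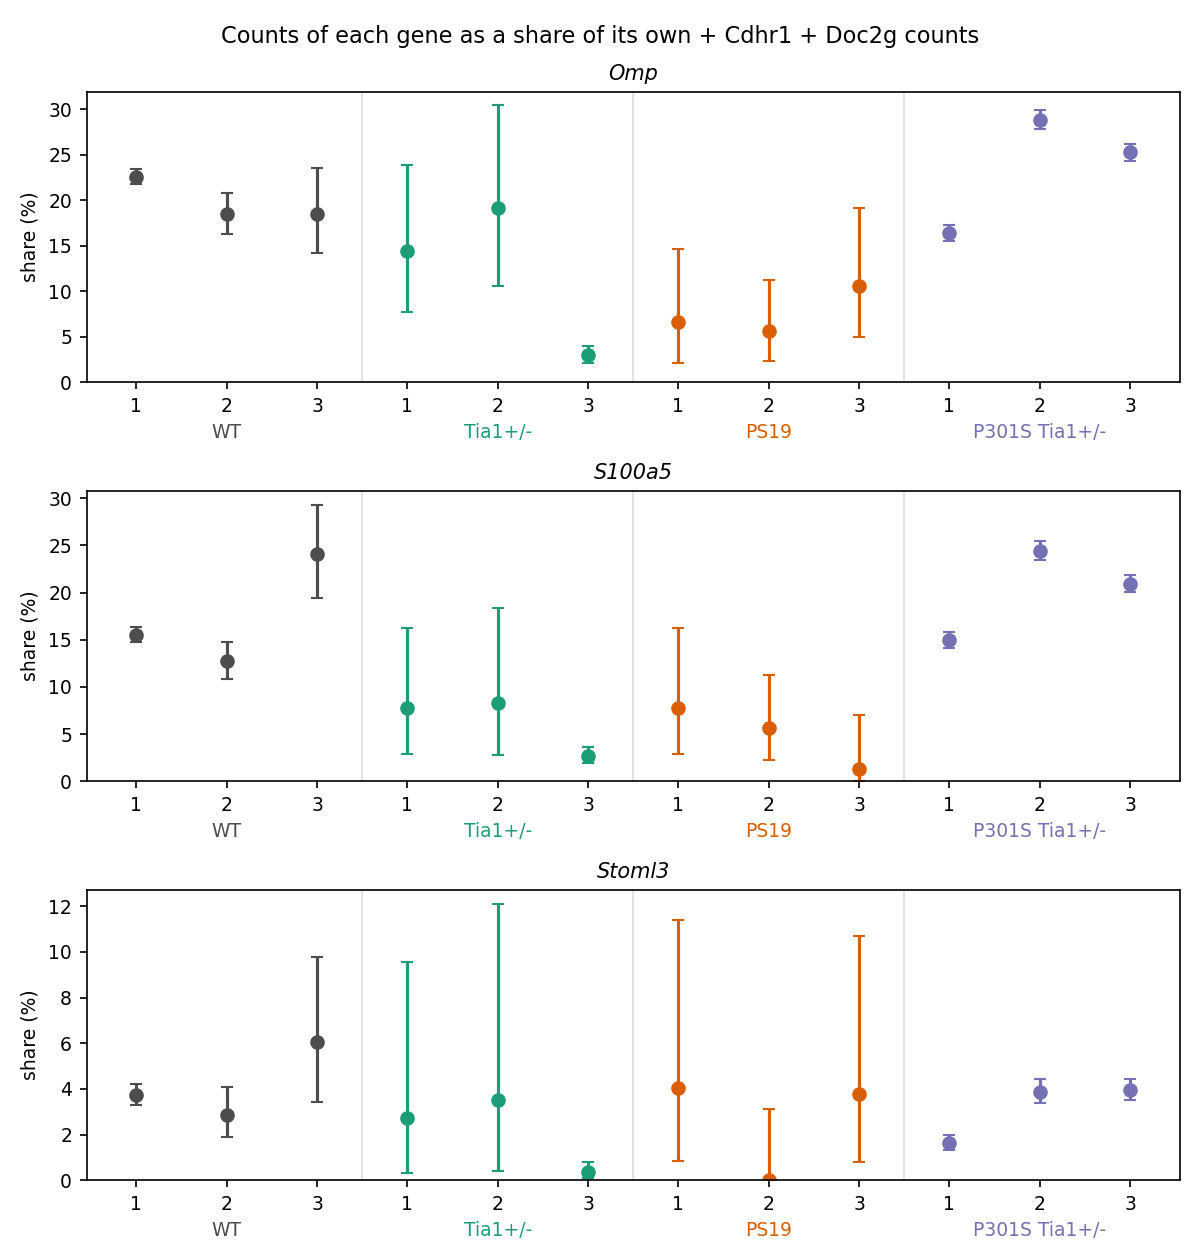
Counts of Omp, S100a5 and Stoml3 in each library as a percentage of that gene's counts plus those of Cdhr1 and Doc2g, with exact 95% binomial intervals that cover counting error only. Omp lies at 16.4 to 28.9% in P301S Tia1+/- and 18.5 to 22.6% in WT libraries and at 2.98% in Tia1+/- replicate 3.

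The ratios among the 3 genes were also compared. S100a5 stood at 63.0, 64.3 and 140 counts per 100 Omp counts in WT libraries and at 89.3, 79.6 and 78.35 in P301S Tia1+/- libraries. The counting intervals of WT replicates 1 and 2 were 58.7 to 67.6 and 51.8 to 79.6, and that of WT replicate 3 was 96.8 to 203. The ratio of WT replicate 3 rests on 1 library with 74 counts of S100a5 and 53 of Omp. These intervals cover counting error only and not the spread between mice, so they describe single libraries. Stoml3 stood at 13.3, 12.95 and 28.3 per 100 Omp counts in WT and at 8.41, 9.97 and 12.2 in P301S Tia1+/- libraries. The counting intervals of WT replicate 1 (11.7 to 15.15) and P301S Tia1+/- replicate 1 (6.76 to 10.35) did not overlap. This pair of libraries was named after the ratios were seen. In Tia1+/- replicate 3, where Omp was low against the bulb genes, S100a5 stood at 90.9 (57.7 to 143) and Stoml3 at 11.4 (3.52 to 28.6) per 100 Omp counts. PS19 libraries gave no usable ratio, since each rested on 9 or fewer Omp counts.

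The label of axonal RNA was checked against genes of other cells of the nasal epithelium. Sustentacular cells, the supporting cells around receptor neurons, are marked by the detoxifying enzymes Cyp2g1, Cyp1a2 and Ugt2a1. P301S Tia1+/- libraries held 5, 168 and 1101 counts of them in sum, WT libraries 226, 27 and 14, Tia1+/- libraries 3, 2 and 6, and PS19 libraries 2, 0 and 0. Cyp2g1 alone had 3, 92 and 513 counts in the P301S Tia1+/- libraries, in the order of their replicates. The libraries with many Omp counts therefore also held counts of these sustentacular genes, with the exception of P301S Tia1+/- replicate 1. For each 100 Omp counts the sustentacular sum was 0.433 in P301S Tia1+/- replicate 1, 7.44 in replicate 2 and 49.35 in replicate 3, and it was 11.2, 12.05 and 26.4 in WT libraries. Omp itself was similar in P301S Tia1+/- replicates 2 and 3, at 2257 and 2231 counts, where the sustentacular sum was 168 and 1101. Muc5b, a gel-forming mucin of nasal glands, had 0, 55 and 279 counts in P301S Tia1+/- libraries. It had 17, 3 and 8 counts in WT, 15, 12 and 11 in Tia1+/- and 18, 6 and 11 in PS19 libraries. Scaled to library size, WT replicate 1 stood at 1.36 CPM of Muc5b, against 0.254 and 0.608 in the other WT libraries and 1.04 in Tia1+/- replicate 1. Cbr2, another gene listed for nasal epithelium, had 70, 9 and 16 counts in WT and 12, 58 and 173 in P301S Tia1+/- libraries. Of the basal cell markers, Krt5 and Krt14 had 7 and 2 counts in P301S Tia1+/- replicate 3 and 0 in all other libraries, whereas Trp63 was counted in every library, with 34, 13 and 8 counts in WT, 8, 26 and 19 in P301S Tia1+/- and 4 to 12 in the others. The odorant-binding protein genes Obp1a and Obp2a had 0 or 1 count in each library.

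The whole nasal epithelium list of 10 genes summed to 1.57 to 94.1 CPM in P301S Tia1+/- libraries, 3.50 to 27.8 in WT, 1.68 to 2.81 in PS19 and 1.97 to 2.64 in Tia1+/-. Of its 6 tested genes edgeR called 0 in each of the 4 comparisons. In P301S Tia1+/- against PS19, 5 were higher at an unadjusted p under 0.05 (11.7% of all genes), 3 were called by DESeq2 (Cyp2g1, Cyp1a2 and Ugt2a1, beside 3.52% of all genes), and the median log2 fold was 5.47, against 0.01 over all genes. These values came from replicates 2 and 3 of P301S Tia1+/-, since the list sum of replicate 1 (1.57 CPM) lay below every PS19 library. Of the 6 genes, 2 lay wholly above PS19, as did 20.2% of all genes. Cyp1a2 had 0 counts in the PS19 libraries and passed the filter on low counts through the libraries where it was high. Because most libraries with many Omp counts also held sustentacular counts, Omp, S100a5 and Stoml3 are named here by their neuron type and not by the axon. How much of their RNA came from axons in the bulb and how much from cell bodies in the epithelium was not tested. In bulk tissue, fewer cells of a type and less RNA per cell cannot be told apart.

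**Figure D4:**
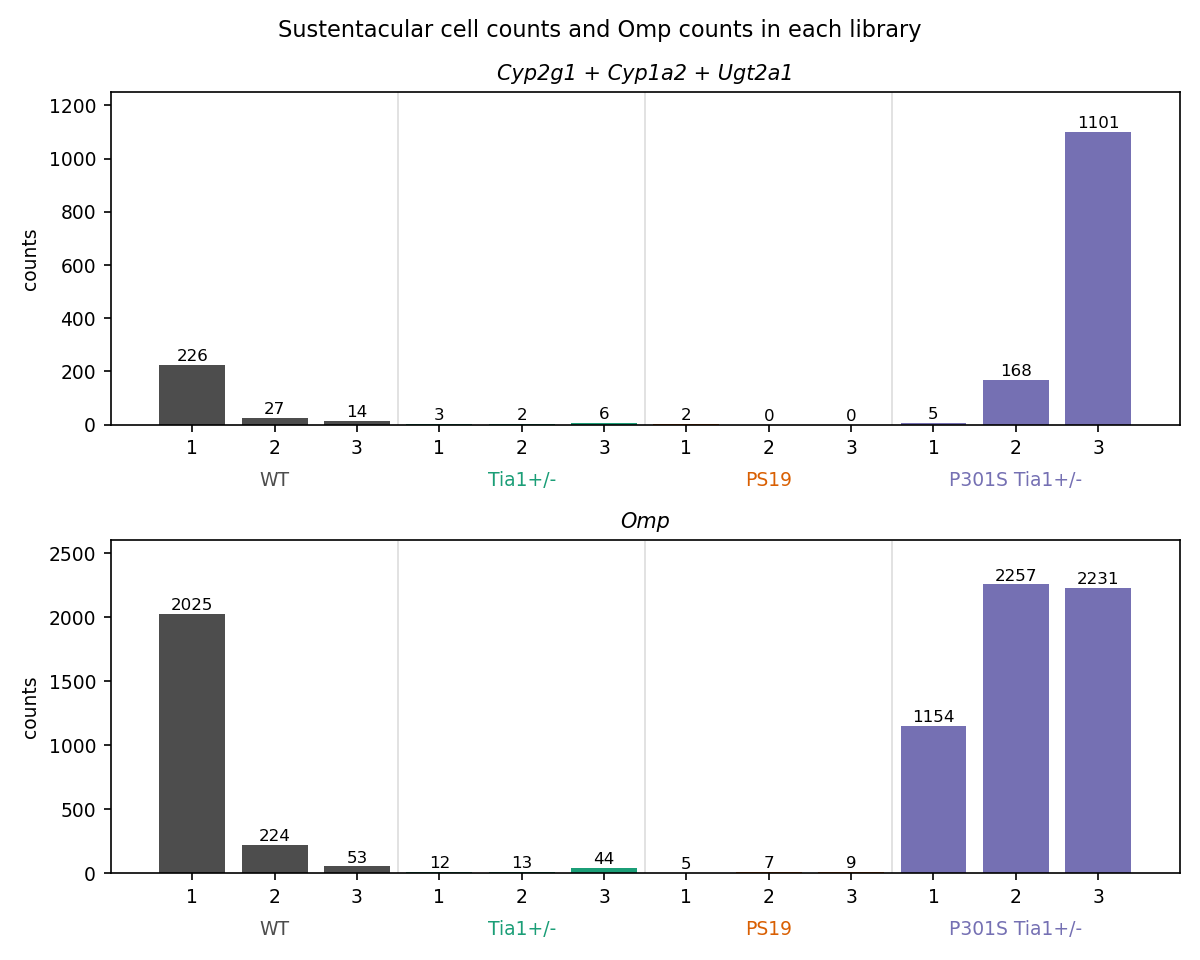
Summed counts of the sustentacular cell genes Cyp2g1, Cyp1a2 and Ugt2a1 (top) and counts of Omp (bottom) in each of the 12 libraries, as bars from 0 with the count printed above each bar. P301S Tia1+/- replicate 1 has 1154 Omp counts beside 5 sustentacular counts, and replicate 3 has 2231 beside 1101.

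The transduction genes of receptor neurons were less uniform. In the cilia an odorant receptor activates a G protein containing the Gnal and Gng13 products, then Adcy3 makes cyclic AMP, which opens a channel built of Cnga2, Cnga4 and Cngb1 subunits, and calcium then opens the chloride channel Ano2. Cnga2 had 21, 71 and 125 counts in P301S Tia1+/- libraries, 103, 11 and 8 in WT, 4, 6 and 4 in Tia1+/- and 2, 3 and 8 in PS19 libraries. Relative to 100 Omp counts it stood at 1.82, 3.15 and 5.60 in P301S Tia1+/- replicates 1 to 3 and at 5.09 in WT replicate 1. Rtp2, which helps odorant receptors reach the membrane, had 12, 47 and 69 counts in P301S Tia1+/- and 2, 2 and 1 in PS19 libraries. Umodl1, which encodes olfactorin, had 14, 42 and 131 counts against 5, 7 and 2. In these 3 genes, as in the sustentacular genes, replicate 1 of P301S Tia1+/- was the lowest and replicate 3 the highest of the group. Omp was nearly level between replicates 2 and 3. Other genes of the receptor neuron list were mixed. Cngb1 (8, 32 and 54 counts) and Ebf2 (8, 35 and 83) had the same order of replicates. Gng13 (512, 636 and 546), Gnal (2217, 2687 and 2458) and Ric8b (1239, 1253 and 1223) were highest in replicate 2. Adcy3 (468 to 989 counts) and Ncam2 (1258 to 3730 counts), both also expressed in cortex, were present in all libraries.

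Over the list of 21 receptor neuron genes that leaves out Omp, S100a5 and Stoml3, the summed level of P301S Tia1+/- libraries was 551 to 618 CPM, beside 521 to 695 in PS19, 512 to 575 in WT and 530 to 969.5 in Tia1+/-. The highest sum was that of Tia1+/- replicate 3, in which Gnal made up 493 of 969.5 CPM. Of the 19 tested genes edgeR called 0 in all 4 comparisons. In P301S Tia1+/- against PS19, 8 were higher and 1 was lower at an unadjusted p under 0.05, where 11.7% and 7.62% of all genes were. DESeq2 called 4 as higher (Gng13, Cnga2, Rtp2 and Umodl1), beside 3.52% of all genes, and the median log2 fold was 0.55. In PS19 against WT, 4 were lower without adjustment (9.73% of all genes) and DESeq2 called Cnga2 and Rtp2 (1.87% of all genes lower), with a median of -0.22. The same pair of genes was called lower by DESeq2 in Tia1+/- against WT, where 1 was higher and 4 were lower unadjusted (8.63% and 10.5% of all genes) and the median was -0.33. In P301S Tia1+/- against WT, 1 gene was higher unadjusted, 0 were called by DESeq2 and the median was 0.36. Without WT replicate 1, which enters the shared estimate of the spread, 7 genes of this list were called higher in P301S Tia1+/- against PS19 and 2 in P301S Tia1+/- against WT. Over all genes those fits called 1023 and 864 as higher. Leaving out WT replicate 3 gave 1 gene of the list called lower in Tia1+/- against WT, where 497 genes were called in either direction.

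Odorant receptor genes carry the identity of each receptor neuron. Of 1122 in the table, 230 had at least 1 count in WT replicate 1, and 112, 175 and 284 in P301S Tia1+/- replicates 1 to 3. In the other 8 libraries this number was 46 to 68. The summed level of all odorant receptors did not separate the groups, at 73.5 to 127 CPM in P301S Tia1+/- and 89.5 to 97.8 in PS19 libraries, because Olfr613 and Olfr856-ps1 had 415 to 838 counts in every library. Without this pair, left out after their values were seen, the sums were 18.05, 28.7 and 45.0 CPM in P301S Tia1+/-, 42.1, 13.03 and 13.8 in WT, 11.9 to 15.8 in Tia1+/- and 9.41 to 13.2 in PS19 libraries. P301S Tia1+/- replicate 1 thus held 112 odorant receptors at 1154 Omp counts and few sustentacular counts, and replicate 3 held 284 at 2231. Of the 9 odorant receptor genes that passed the filter, edgeR called 0 in the 4 comparisons. At an unadjusted p under 0.05, 2 were higher in P301S Tia1+/- against PS19 (11.7% of all genes) and 0 differed in the others. DESeq2 called Olfr112 alone, as higher in P301S Tia1+/- against PS19, beside 3.52% of all genes.

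The bulb neuron list, which leaves out Cdhr1 and Doc2g, summed to 1066 to 1279 CPM in P301S Tia1+/-, 155 to 228 in PS19, 1677, 400 and 192.5 in WT and 207, 205.5 and 547 in Tia1+/- libraries. The libraries with the most Omp were again those with the most bulb neuron RNA, and Tia1+/- replicate 3 was the library with raised bulb genes and few Omp counts. Th, the dopamine-synthesis enzyme of periglomerular cells, had 1117, 1113 and 1283 counts in P301S Tia1+/- and 25, 42 and 34 in PS19 libraries. Of 15 tested genes edgeR called 0 in the 4 comparisons, while 14 were higher at an unadjusted p under 0.05 in P301S Tia1+/- against PS19 (12 by DESeq2, median log2 fold 4.42), 12 were lower in PS19 against WT (9 by DESeq2, median -3.69), 8 were lower in Tia1+/- against WT (0 by DESeq2, median -2.26) and 0 differed in P301S Tia1+/- against WT (0 by DESeq2, median 0.61). Over all genes, 11.7% were higher unadjusted in the first of these comparisons, 9.73%, 10.5% and 9.46% were lower in the others in that order, and the medians lay between -0.01 and 0.02. Without WT replicate 1, 13 genes of this list were called higher in P301S Tia1+/- against PS19 and 3 in P301S Tia1+/- against WT. Over all genes those fits called 1023 and 864 as higher. In the former comparison 2 of the list were called higher without WT replicate 3 or without Tia1+/- replicate 3, beside 52 and 63 genes in all. Without WT replicate 3, 1 was called lower in Tia1+/- against WT, where 497 genes were called in either direction.

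For the 7 cortical genes the median log2 fold in P301S Tia1+/- against PS19 was -0.83, with 7 of 7 at lower values beside 7494 of 15440 genes in all, and edgeR, DESeq2 and an unadjusted p under 0.05 called 0 of them. For 5 of the 7, every P301S Tia1+/- library lay below every PS19 library, as for 2816 of 15440 genes in all. In PS19 against WT the median was 0.27, in Tia1+/- against WT 0.06 and in P301S Tia1+/- against WT -0.54, again with 0 called by edgeR and DESeq2, and 1 lower in the last at an unadjusted p under 0.05. The part of the cortical share of the tissue in the levels of Omp, S100a5 and Stoml3 was not tested.

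The genes whose profile over the 12 libraries came closest to each of the 3 were named by the root mean square difference of centred log2 CPM. For Omp the nearest were S100a5 (0.586), Stoml3 (0.893), Doc2g (0.894), Eomes (0.990), a transcription factor of mitral and tufted cells, and Ms4a15 (1.02). S100a5 lay nearest to Omp (0.586), followed by Eomes (0.837), Doc2g (0.995), Tbx21 (1), another factor of mitral and tufted cells, and Ms4a15 (1.03). Around Stoml3 lay the water channel Aqp1 (0.702), the phosphatase gene Ppm1j (0.755), the sulfotransferase gene Sult1d1 (0.781), Fam19a3 (0.847) and Clca1 (0.892), and Omp came 6th (0.893). The order for Stoml3 depended on the prior count. With 0.5 in place of 2, Omp came first (0.933), before Sult1d1 (0.965). With a prior count of 2, Cdhr1 ranked 8th for Omp and 35th for Stoml3. Sult1d1 had 23, 44 and 80 counts in P301S Tia1+/- libraries, with replicate 1 the lowest and replicate 3 the highest, the same order as for Stoml3. These distances share the libraries, their depth and their scaling, and are a description over 12 points.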

How the data were processed

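Per the labels, RNA was measured by paired-end sequencing of TruSeq Stranded Total libraries, 1 library per mouse. The authors aligned reads to mm10 with TopHat2 (2.0.6 in the submitters' processing notes, another release in the study's methods) and deposited whole-number counts per gene from featureCounts, with no normalization. The gene annotation, the strand setting and the treatment of reads with several positions are not given in the sources used here. Nothing in them ties libraries to batches. The p-values of the main fit rest on a spread between mice within groups that was estimated over all 12 libraries together.

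From these counts, edgeR 4.0.16 in R 4.3.3 computed TMM library sizes, filtered low counts (filterByExpr, 15440 of 24062 genes kept, while 3287 genes had no count) and fitted the quasi-likelihood model with a mean per group to all 12 libraries. Calls were made at a Benjamini-Hochberg adjusted p under 0.05. CPM are the counts divided by the TMM-scaled library size, on the usual CPM scale. SE is the absolute log2 fold divided by the square root of the F statistic. Profiles used log2 CPM with a prior count of 2, and ratios a pseudocount of 0.5. Binomial intervals are exact at 95% and cover counting error only. Motifs were counted in RefSeq promoters of GRCm38.p6, and positions come from GENCODE on GRCm38, the assembly of mm10. Alternatives were DESeq2 1.42.0, its size factors, no filter, the 6 libraries compared, a replicate block, groups from the genotype entries, and each library left out. Shares of genes called by DESeq2 are of those to which it gave an adjusted p.

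The 3 genes, the gene lists and the tests were chosen with earlier results of these data known. Named genes are the 3 genes, Cdhr1 and Doc2g, neighbours in the annotation, the 5 nearest profiles, genes of each list that were called or among its 4 highest by mean CPM, and Xist and Tia1 as checks. Other list genes given with values were named after their values were seen, and some genes under this rule are not reported here.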

Additional observations from a re-analysis of the deposited data

Results flagged for a closer look

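Between the groups with 1 mutant and with no mutant Tia1 allele, several genes lay apart in opposite directions with and without the tau transgene. In CPM, every P301S Tia1+/- library lay above every PS19 library and every Tia1+/- library below every WT library. Over all genes, 20.2% lay apart in the first way and 10.4% in the second, and the share with both was not counted. Sex and Tia1 genotype cannot be told apart in either comparison. Without WT replicate 1 the fold of Omp in the second was -2.88. The log2 fold of the first comparison minus that of the second was 13.33 for Omp, 13.41 for S100a5 and 11.86 for Stoml3, which are the genes chosen for their values. Among the other receptor neuron genes it was 7.32 for Cnga2, 8.85 for Rtp2 and 6.07 for Umodl1, and among the sustentacular cell genes 16.35 for Cyp2g1 and 11.79 for Ugt2a1. Each difference was not tested. Cyp2g1 had 0 counts in the PS19 libraries, so the size of its fitted fold depends on the prior count and is no bound. Ugt2a1 had 2 counts in both P301S Tia1+/- replicate 1 and PS19 replicate 1, which library size alone set apart. Rtp2 likewise had 2 counts in both Tia1+/- replicate 1 and WT replicate 3. With groups taken from the genotype entries, the fold of Omp was 1.77 in the first comparison and 0.88 in the second.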

How the results depend on the processing

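The directions of the folds of Omp, S100a5 and Stoml3 did not turn under DESeq2, its size factors, no filter, the 6 libraries compared or the replicate block. Groups from the genotype entries turned them in Tia1+/- against WT (0.88, 1.21 and 0.51) and in P301S Tia1+/- against WT (-5.34, -5.15 and -5.34), moved them to 1.77, 1.91 and 0.66 in P301S Tia1+/- against PS19, and gave 11, 203 and 110 calls in P301S Tia1+/- against PS19, Tia1+/- against WT and P301S Tia1+/- against WT. DESeq2 called 431 genes in PS19 against WT (2 of the receptor neuron and 9 of the bulb list), 821 in P301S Tia1+/- against PS19 (4 and 12), 972 in Tia1+/- against WT (2 of the receptor neuron list) and 974 in P301S Tia1+/- against WT. The 6 libraries alone gave 3025 calls in P301S Tia1+/- against PS19 (9 and 15), 6 in Tia1+/- against WT and 14 in P301S Tia1+/- against WT, and no filter gave 73 and 122 in the last pair. The cause was not tested. Replicate numbers did not pair the libraries (correlations of deviations from -0.538 to 0.346), and the replicate block gave 7, 9 and 18 calls in place of 37, 110 and 203.

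Leaving out each library in turn gave 0 to 1 calls in PS19 against WT, 6 to 1606 in P301S Tia1+/- against PS19, 8 to 497 in Tia1+/- against WT and 9 to 1637 in P301S Tia1+/- against WT, the highest without PS19 replicate 3, WT replicate 1, WT replicate 3 and WT replicate 1 in that order. Receptor neuron list calls ranged over 0 to 7, 0 to 1 and 0 to 2 in the last 3, and bulb list calls over 0 to 13, 0 to 1 and 0 to 3. The folds of Omp, S100a5 and Stoml3 ranged over -7.65 to -4.67, -7.61 to -4.88 and -6.51 to -3.76 in PS19 against WT, 7.64 to 8.23, 7.74 to 8.80 and 6.06 to 6.86 in P301S Tia1+/- against PS19, -6.18 to -2.88, -6.72 to -2.95 and -5.88 to -3.10 in Tia1+/- against WT, and 0.31 to 3.33, 0.68 to 3.39 and -0.03 to 2.74 in P301S Tia1+/- against WT. Their mean log2 ratios to the bulb genes ranged over -1.96 to -1.43, -2.21 to -1.77 and -5.27 to -4.61, and were -0.78, -1.06 and -4.09 with Cdhr1 alone and -0.69, -0.97 and -4.00 with Doc2g alone. With a prior count of 0.5, 3 of the 5 nearest profiles of Omp and 3 of those of Stoml3 were shared, and 4 of those of Stoml3 without WT replicate 1. PS19 and Tia1+/- libraries held at most 13 Omp counts outside Tia1+/- replicate 3, which limits every ratio there.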

Other observations

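Olfactory ensheathing glia wrap the receptor neuron axons on their way into the bulb. The 8 genes of their list summed to 1403 to 1542 CPM in P301S Tia1+/- and 1108 to 1758 in PS19 libraries. Fabp7, a fatty acid-binding protein of these glia and of other astroglia, had 2139, 2699 and 2397 counts in P301S Tia1+/-, 488, 259 and 217 in PS19, 5771, 941 and 373 in WT and 175, 174 and 615 in Tia1+/- libraries. Frzb, a secreted Wnt antagonist of these glia, had 713, 858 and 840 counts in P301S Tia1+/- and 180, 309 and 353 in PS19 libraries. Of the 8 genes edgeR called 0 in the 4 comparisons, with 4 higher at an unadjusted p under 0.05 and 3 by DESeq2 in P301S Tia1+/- against PS19 (median log2 fold 0.40). Of the 8, in PS19 against WT 2 were lower unadjusted and 1 by DESeq2 (median -0.36), in Tia1+/- against WT 2 were higher and 2 lower unadjusted and 1 was lower by DESeq2 (median -0.29), and in P301S Tia1+/- against WT 1 was higher unadjusted and 0 by DESeq2 (median 0.11). Over all genes 11.7% were higher unadjusted in P301S Tia1+/- against PS19 and 3.52% by DESeq2. In PS19 against WT 9.73% of all genes were lower unadjusted and 1.87% by DESeq2. In Tia1+/- against WT 8.63% were higher and 10.5% lower unadjusted, and 4.12% were lower by DESeq2. In P301S Tia1+/- against WT 8.57% were higher unadjusted. These shares also stand beside the neuroblast, stomatin and S100 counts given here.

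Neuroblasts migrate into the bulb throughout life, and Dcx marks them. Their 4 listed genes summed to 124 to 152 CPM in P301S Tia1+/-, 45.4 to 62.8 in PS19, 166, 70.4 and 42.1 in WT and 55.5, 47.2 and 115 in Tia1+/- libraries. EdgeR called 0 of the 4 in each comparison, with medians of 1.56 in P301S Tia1+/- against PS19 (3 higher unadjusted, 1 by DESeq2), -1.12 in PS19 against WT (2 lower unadjusted, 0 by DESeq2), -0.63 in Tia1+/- against WT (1 lower unadjusted, 1 by DESeq2) and 0.56 in P301S Tia1+/- against WT (0 unadjusted, 0 by DESeq2).

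Relatives of the 3 genes varied less. Stom, the founding member of the stomatin family, had 315, 532 and 738 counts in P301S Tia1+/-, 543, 153 and 130 in WT and 141 to 246 in PS19 libraries, and was called in P301S Tia1+/- against PS19 by DESeq2 alone. EdgeR called 0 of the 3 tested genes of the family in the 4 comparisons, with 1 higher unadjusted in that comparison and 0 in the others. Stoml1 and Stoml2 had 446 to 1226 and 561 to 1019 counts over the 12 libraries. Of 10 tested S100 genes other than S100a5, edgeR called 0 in the 4 comparisons and DESeq2 called S100b and S100a10 in P301S Tia1+/- against PS19, where 5 were higher unadjusted, 1 was lower in PS19 against WT and in Tia1+/- against WT, and 1 was higher in P301S Tia1+/- against WT. Of 339 vomeronasal genes 10 were tested and edgeR called 0 in the 4 comparisons, with median log2 folds from -0.50 to -0.16. Unadjusted, 3 were lower in P301S Tia1+/- against PS19 (7.62% of all genes) and 3 in P301S Tia1+/- against WT (9.46%). In Tia1+/- against WT 1 was higher (8.63% of all genes) and 2 were lower (10.5%), and 0 differed in PS19 against WT. DESeq2 called Vmn2r87 as lower in P301S Tia1+/- against WT, beside 4.52% of all genes.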
